A study of Mus musculus with 4 samples.

Results

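Plasma cells in the blood were followed through cerulein-induced acute pancreatitis, and 50 of the 48032 cells kept met the definition used here. A cell counted as a plasma cell if it held at least 10 unique molecular identifiers (UMIs, each standing for 1 captured RNA molecule) of Mzb1, Txndc5 and Derl3 together. It also had to hold at most 1 UMI of Cd3d, Cd3e and Cd3g together, under 5000 CPM (UMIs of a gene scaled to a fixed total, as counts per 1e+06 UMIs) of Lyz2, no UMI of Siglech and at most 10% mitochondrial UMIs. The files have no row for Derl3, so the sum rests on Mzb1 and Txndc5. The control library (0 h) held 7 plasma cells, the library of 12 h held 17, that of 24 h held 9 and that of 96 h held 17. They were set against 14185 B cells, which had at least 3 UMIs of Cd79b, Ms4a1 and Fcmr together.

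Wild-type C57BL/6J mice aged 6 to 8 weeks gave the blood, from which mononuclear cells were isolated over Ficoll and sequenced with a 5′ droplet kit, 1 cell per barcode. Pancreatitis was brought on by 7 intraperitoneal injections of cerulein, a cholecystokinin analogue that overstimulates the acinar cells of the pancreas. The libraries of 12 and 24 h stand for its initial phase and that of 96 h for recovery, a time the design text gives as 168 h. The control library was taken at 0 h, each time had 1 library, and the labels do not say how many animals each holds. With 1 library per time there is no test between times, and all intervals below are 95% intervals that cover counting error only.

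Plasma cells are the antibody-secreting end stage of the B cell lineage. Blimp-1, the product of Prdm1, and XBP1 shut down much of the B cell programme and expand the endoplasmic reticulum (ER), where antibody chains are translocated, folded, glycosylated and checked before export. Newly made plasma cells pass through the blood on their way to bone marrow, gut and other tissues, and there they are rare.

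The libraries held 53380 cells and between 60515205 and 79516878 UMIs each. Genes are listed under names of which 28 begin with RT1-, the rat prefix of the major histocompatibility complex, and 0 with the mouse prefix H2-, although the labels give mouse. Of 16152 names, 12518 match a mouse symbol and 2918 are gene models without a symbol, which are given no function here. Plasma cells were deep, with a median of 17407.5 UMIs (range 5008 to 33430), against 3022 UMIs in B cells. When cells with at least 2000 UMIs (50 of 50 plasma cells, 13717 of 14185 B cells) were thinned to 2000 UMIs, the median plasma cell showed 656 genes, against 836 genes in B cells. None of the 50 was marked by a doublet caller (0 of 50) that marked between 4.07% and 5.49% of the cells of each library. No plasma cell of a library had the counts of a plasma cell in another (0 pairs), while the barcode list of 24 h was identical to that of 12 h, so no barcode was used.

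The limit on Cd3 UMIs removed many cells with plasma cell markers, and it did so unevenly between the libraries. Of 91 cells with at least 10 UMIs of Mzb1 and Txndc5 and at most 10% mitochondrial UMIs, 35 were kept out by more than 1 Cd3 UMI alone. The control library lost 19 of 27 such cells, that of 12 h lost 6 of 25, that of 24 h lost 7 of 19 and that of 96 h lost 3 of 20. Of these 35 cells, 32 held Tnfrsf17, 32 held Jchain and 30 held Prdm1, and their median sum of Mzb1 and Txndc5 was 108 UMIs (range 10 to 244). All 35 held Cd3g, with a median of 4 UMIs, and 24 of them held no UMI of Cd3d or Cd3e. Cd3g encodes a chain of the T cell receptor complex, and it stood at 285 CPM in these cells, against 824 CPM in 11618 T cells. The T cells were chosen by at least 3 Cd3 UMIs and the 35 cells by more than 1, so their Cd3 levels are set in part by that choice. In the 35 cells Cd3d stood at 51.4 CPM and Lck, a kinase of T cell receptor signalling, at 16.1 CPM. The 14185 B cells had 30.8 CPM of Lck and the T cells 419 CPM. None of the 35 was marked as a doublet (0 of 35). Results that change when this limit is dropped are given with and without it, a setting chosen after the data were seen.

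**Figure D1:**
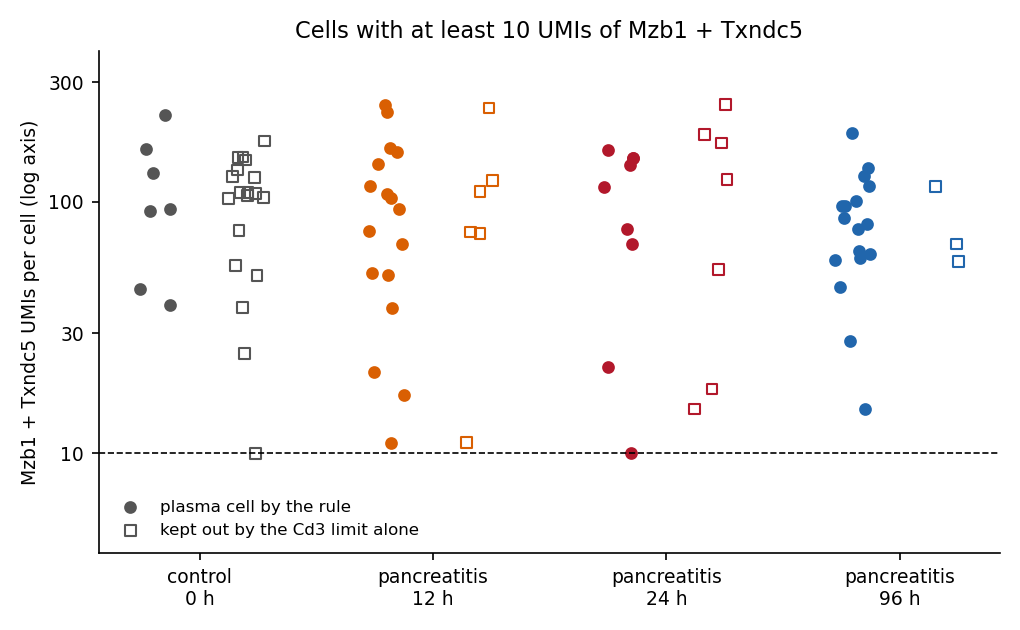
UMIs of Mzb1 and Txndc5 per cell (log axis) for plasma cells (filled circles, 7, 17, 9 and 17 cells by time) and for cells kept out by the Cd3 limit alone (open squares, 19, 6, 7 and 3 cells), with the threshold of 10 UMIs as a dashed line. Both kinds of cell span the same range, and the control library has more open than filled points.

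The threshold fell in a sparse stretch of values. In the 4 libraries, 46 cells that passed the other limits held 5 UMIs of Mzb1 and Txndc5, 26 held 6, 8 held 7, 8 held 8 and 6 held 9. Just above it, 1 cell held 10, 1 held 11 and 1 held 15. The median plasma cell held 93 UMIs, and by time the library medians were 94, 94, 115 and 82 UMIs.

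The markers used for the label that the definition did not use were present. Jchain, whose product joins IgA and IgM into polymers, was detected in 48 of 50 cells. Its level in plasma cells was 596 CPM in control, 632 at 12 h, 230 at 24 h and 389 at 96 h, against 4.71 CPM in the B cells of all libraries. Prdm1 was detected in 42 of 50 cells, at 262 CPM in control, 251 at 12 h, 183 at 24 h and 286 at 96 h, against 5.38 CPM in B cells. Every library of plasma cells lay above every library of B cells in both genes. Among B cells, at their lower depth, 1.56% held a Jchain UMI and 1.35% a Prdm1 UMI. Mzb1, a chaperone of immunoglobulin assembly that chose the cells, stood at 5986, 4792, 2996 and 3422 CPM by time, and Txndc5, a disulfide isomerase that also chose them, at 1928, 1652, 1202 and 1362 CPM. Of the 50 plasma cells 45 also met the definition of B cells, a raw sum of UMIs that deeper cells meet more easily. Cd79b was detected in 49 of the 50, Ms4a1 in 10 and Fcmr in 11.

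The genes that separated plasma cells from B cells most evenly, after thinning to 2000 UMIs and leaving out the given markers, were Sec11c, Creld2, Manf, Tnfrsf17, Pdia6, Fkbp2, Sdf2l1 and Sec61b. All but Tnfrsf17 encode parts of the ER or its folding factors. Tnfrsf17 encodes BCMA, a receptor for the survival factors APRIL and BAFF.

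The ER stress response element (ERSE) is the sequence through which the factors ATF6 and XBP1 are known to act together with NF-Y. Of the 7 ER genes just named, Creld2 and Pdia6 held it in the promoters searched. It was searched as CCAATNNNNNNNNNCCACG on both strands of 300-base RefSeq promoters (250 bases before and 50 after the gene's start, mouse build GRCm38.p6), and the related ERSE-II as ATTGGNCCACG. Of 27 ER folding genes measured, 23 had a promoter in the table, and 8 of these (34.8%) held ERSE, against 37 of all 27025 genes (0.137%) and 11 of 6329 genes measured in plasma or B cells (0.174%). The 37 and the 11 both include these 8 folding genes. ERSE-II was found in 1 of the 23 (4.35%), against 12 of 27025 genes (0.0444%) and 6 of the 6329 genes measured (0.0948%). The bare CCACG core, which lies inside both motifs, was found in 95.7% of the folding genes in 35.5% of all genes and in 54.2% of the genes measured. A match describes the letters of a promoter and is not evidence of binding. The sites below belong to folding and degradation genes whose levels are given after them, with the motif in capitals and 12 flanking bases on each side, all read 5′ to 3′ on the gene's own strand, and where the motif lies on the opposite strand the capitals begin with CGTGG and end with ATTGG.
Hspa5, chr2:34772013-34772055, plus strand: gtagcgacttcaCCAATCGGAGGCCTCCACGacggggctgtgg
Hsp90b1, chr10:86705521-86705563, minus strand: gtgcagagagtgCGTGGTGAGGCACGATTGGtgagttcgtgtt
Hsp90b1, chr10:86705626-86705668, minus strand: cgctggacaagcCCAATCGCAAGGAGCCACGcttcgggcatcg
Pdia6, chr12:17266479-17266521, plus strand: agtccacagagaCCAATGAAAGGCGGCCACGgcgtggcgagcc
Creld2, chr15:88819508-88819550, plus strand: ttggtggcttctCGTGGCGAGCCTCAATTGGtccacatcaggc
Dnajc3, chr14:118937815-118937857, plus strand: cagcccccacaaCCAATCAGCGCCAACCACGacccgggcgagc
Ero1b, chr13:12565670-12565712, plus strand: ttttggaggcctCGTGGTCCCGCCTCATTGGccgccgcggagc
Calr, chr8:84847063-84847105, minus strand: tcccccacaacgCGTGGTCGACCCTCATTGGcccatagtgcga
Canx, chr11:50325788-50325830, minus strand: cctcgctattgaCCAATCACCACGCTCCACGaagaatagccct
Syvn1, chr19:6046520-6046562, plus strand: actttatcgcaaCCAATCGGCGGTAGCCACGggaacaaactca
Herpud1 (ERSE-II), chr8:94386365-94386399, plus strand: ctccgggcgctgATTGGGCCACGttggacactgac
The motif began 65 bases before the annotated start in Hspa5, 105 in Dnajc3, 98 in Pdia6, 44 in Syvn1 and 52 in Herpud1. Hsp90b1 was alone among the folding genes in holding 2 ERSE sites. The ER translocation, ER to Golgi, B cell identity and cell cycle lists held ERSE in 0 of 13, 0 of 15, 0 of 10 and 0 of 16 promoters.

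Genes of ER folding were higher in plasma cells than in B cells as a group. Since B cells and plasma cells were chosen by their RNA, what follows on the 2 classes is a description. A list member counts as higher or lower at 1.5-fold, and over all 8752 genes measured 16.1% were higher and 52.3% lower, with a median log2 ratio of -0.64. Of 27 folding genes 26 were higher and 0 lower, with a median log2 ratio of 3.05. Over the settings tried this median ranged between 2.27 and 3.47, and the list holds Mzb1 and Txndc5, which chose the cells. Hsp90b1, the ER member of the HSP90 chaperones, stood at 2394 CPM in plasma cells and 187 CPM in B cells, a ratio of 12.8 (12.2 to 13.4). Hspa5, the ER chaperone BiP, stood at 916 CPM in plasma cells and 111 CPM in B cells, a ratio of 8.29 (7.68 to 8.93). Pdia4, a disulfide isomerase, stood at 636, 407, 160 and 233 CPM in the plasma cells of control, 12 h, 24 h and 96 h, against 4.36, 8.69, 3.08 and 4.56 CPM in the B cells. Its pooled ratio was 59.5 (50.02 to 70.8), the largest of the list, and the ranges of the 2 classes did not overlap. Creld2, an ER resident protein induced by ER stress, stood at 1302, 990, 550 and 588 CPM by time, against 22.7, 23.6, 22.8 and 22.8 CPM in B cells. Sdf2l1, a partner of BiP, stood at 1585, 1096, 554 and 887 CPM, against 26.3 to 33.8 CPM in B cells. Dnajb9, a BiP cochaperone, was the member that was neither higher nor lower, at 97.1 CPM in plasma cells and 91.6 CPM in B cells, a ratio of 1.06 (0.844 to 1.31). The 8 folding genes with ERSE had ratios between 1.90 (Canx) and 34.0 (Creld2). This lies inside the range of the whole list, from 1.06 (Dnajb9) to 59.5 (Pdia4), and a relation of motif to level was not tested. Pdia6, a disulfide isomerase, stood at 2372, 1397, 1334 and 1126 CPM in plasma cells by time, against 70.9, 91.1, 77.5 and 80.3 CPM in B cells. Dnajc3, a BiP cochaperone, had 579 CPM in plasma cells and 36.8 CPM in B cells, a ratio of 15.7. The lectin chaperones Calr and Canx had ratios of 7.61 and 1.90, and Ero1b, an ER oxidase, had 19.4 CPM in plasma cells and 8.09 CPM in B cells.

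**Figure D2:**
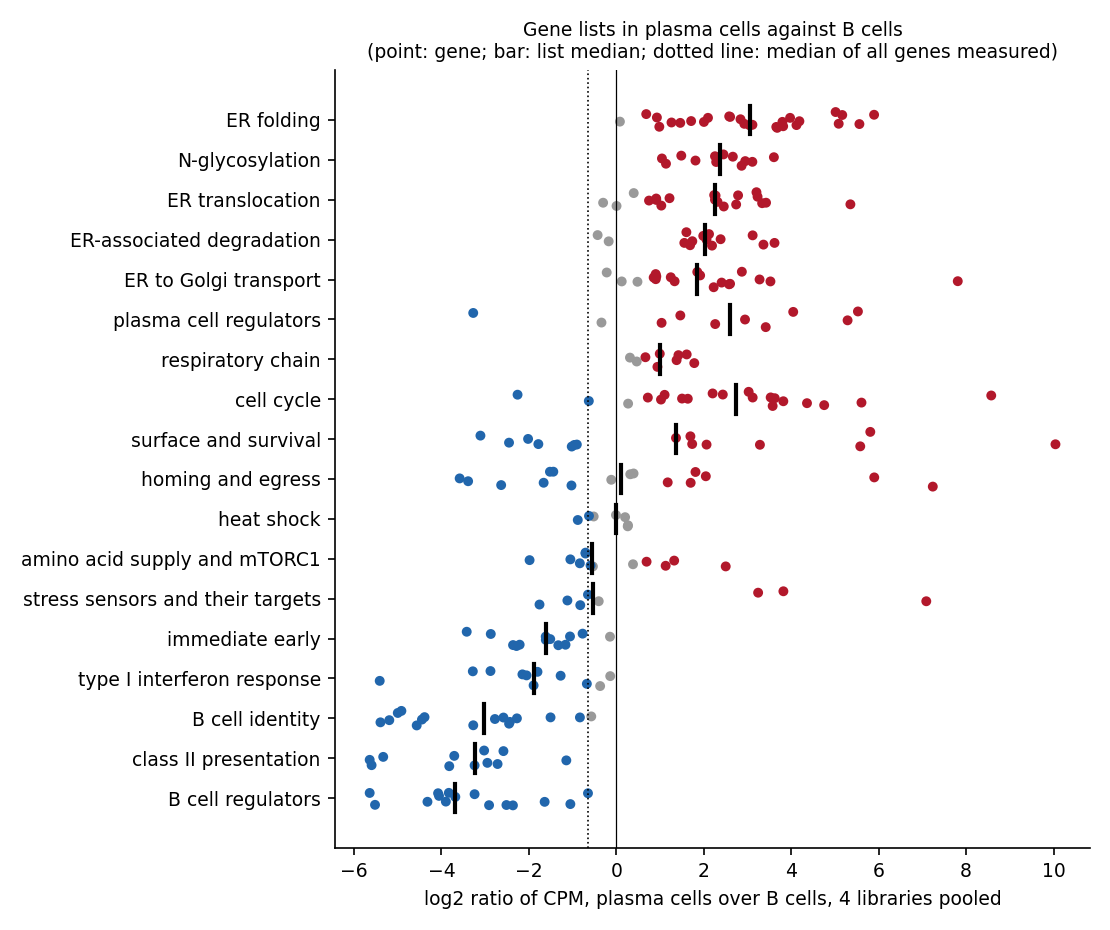
Each point is a gene, placed by its log2 ratio of CPM in plasma cells over B cells with the 4 libraries pooled; red marks at least 1.5-fold higher, blue at least 1.5-fold lower, grey neither. Black bars are list medians, from 3.05 for ER folding to -3.68 for B cell regulators, and the dotted line is the median of all genes measured (-0.64).

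The other stations of the secretory route were also higher. In ER translocation, which covers the Sec61 channel, its partners and signal peptidase, 17 of 20 members were higher and 0 lower (median log2 ratio 2.26). Sec11c, a catalytic subunit of signal peptidase, stood at 2120, 1880, 1080 and 1565 CPM in plasma cells by time, against 38.4, 41.9, 37.8 and 38.7 CPM in B cells. The other catalytic subunit, Sec11a, had a ratio of 1.68 (1.42 to 1.98), so the 2 subunits differed in how far plasma cells and B cells were apart. Sec62 and Srp14 were neither higher nor lower, with ratios of 1.004 and 0.812. All 12 measured N-glycosylation genes were higher (median log2 ratio 2.37), between 2.06-fold for Ost4 and 12.2-fold for Ddost, both parts of the oligosaccharyltransferase. In ER to Golgi transport 16 of 19 were higher and 0 lower (1.85). The KDEL receptor Kdelr3, which returns escaped ER proteins, had 22.8 CPM in plasma cells and 0.102 CPM in B cells, and its sister Kdelr1 had 341 CPM in plasma cells and 56.2 CPM in B cells. The cargo receptor Lman1 stood at 258 CPM in plasma cells and 22.4 CPM in B cells.

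In ER-associated degradation, which removes misfolded proteins, 12 of 14 members were higher and 0 lower (2.03). Herpud1, with the ERSE-II above, stood at 949, 735, 376 and 585 CPM in plasma cells by time, against 61.8, 53.3, 50.1 and 70.8 CPM in B cells. Edem1, a lectin of this route, had 154 CPM in plasma cells and 12.6 CPM in B cells. Syvn1, the ubiquitin ligase HRD1, held ERSE in its promoter but was not higher, at 67.4 CPM in plasma cells and 90.5 CPM in B cells, a ratio of 0.744 (0.565 to 0.962). Ube2g2, a ubiquitin-conjugating enzyme, had 0.886 (0.640 to 1.20).

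The stress sensors and their targets were divided, with 3 of 8 higher and 4 lower (median log2 ratio -0.52), near the values of all genes (52.3% lower, median -0.64). Higher were Ern1, which encodes the sensor IRE1 that splices Xbp1, at 27.4 CPM in plasma cells and 2.89 CPM in B cells, and Asns, asparagine synthetase, at 32.0 CPM in plasma cells and 2.26 CPM in B cells. Chac1, a glutathione-degrading enzyme induced by ATF4, had 19.4 CPM in plasma cells and 0.143 CPM in B cells. Lower were Ddit3, which encodes CHOP, with a ratio of 0.461 (0.288 to 0.699), Sesn2 with 0.296, Ppp1r15a with 0.565 and Eif2ak3, the sensor PERK, with 0.639. Of the amino acid and mTORC1 genes 4 of 12 were higher and 6 lower (median log2 ratio -0.56, likewise near that of all genes). The higher ones included the transporter chains Slc7a5 (51.4 CPM in plasma cells, 9.07 CPM in B cells) and Slc3a2 (209 CPM in plasma cells, 83.5 CPM in B cells). Respiratory chain genes were higher in 7 of 9 cases and lower in 0, by up to 3.44-fold for Uqcrb.

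Transcription factors of plasma cells were mostly higher. Of 10 plasma cell regulators 8 were higher and 1 lower (median log2 ratio 2.60). Xbp1, the master factor of ER expansion, was detected in 28 of 50 cells, against 0.585% of B cells, at 70.7, 72.3, 75.1 and 59.8 CPM by time, against 1.70, 2.09, 1.19 and 1.87 CPM in B cells. Irf4, required for plasma cell formation, had 172 CPM in plasma cells and 16.1 CPM in B cells. Fam46c, a poly(A) polymerase that stabilises immunoglobulin RNA, had 192 CPM in plasma cells and 11.6 CPM in B cells, and Ell2, an elongation factor for the secreted heavy chain, 60.5 CPM in plasma cells and 7.87 CPM in B cells. Ikzf3, which encodes Aiolos, was the lower member, with 20.2, 7.61, 9.39 and 13.3 CPM in plasma cells by time, against 127, 114, 95.5 and 105 CPM in B cells.

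All 15 B cell regulators were lower (median log2 ratio -3.68). Bach2, a repressor of Prdm1, had 0 UMIs in all 50 plasma cells, against 176, 134, 140 and 172 CPM in B cells. Its ratio was 0.0218 with plasma cells set to a floor of 3 counts over the pooled cells, and the interval reached up to 0.0269. Pax5, which keeps B cell identity, was at 1.14 CPM in plasma cells and 22.8 CPM in B cells. Ciita, the master regulator of class II genes, was at 1.14 CPM in plasma cells and 56.9 CPM in B cells. Tcf3, which encodes E2A, was the least lowered, with a ratio of 0.639 (0.522 to 0.774).

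Of 16 B cell identity genes, among them Cd79b, Ms4a1 and Fcmr, which chose the B cells, 15 were lower and 0 higher (-3.02). Fcmr, the IgM receptor that is part of the B cell definition, had 0, 34.3, 79.8 and 13.3 CPM in plasma cells by time, against 974, 1169, 1067 and 1129 CPM in B cells. Fcer2, the IgE receptor CD23, was at 0 UMIs in the plasma cells of 3 libraries and at 15.2 CPM at 12 h, against 165 to 212 CPM in B cells. Cd79b, a signalling chain of the B cell receptor that is part of the B cell definition, had 843 CPM in plasma cells and 2389 CPM in B cells, a ratio of 0.353. The ratios nearest to 1 in the list were those of the adaptor Blnk (0.562) and the kinase Blk (0.673). All 11 measured class II presentation genes were lower (-3.24). Cd74, the invariant chain, had 1544, 1899, 2691 and 2293 CPM in plasma cells by time, against 12998, 11621, 13022 and 14294 CPM in B cells.

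**Figure D3:**
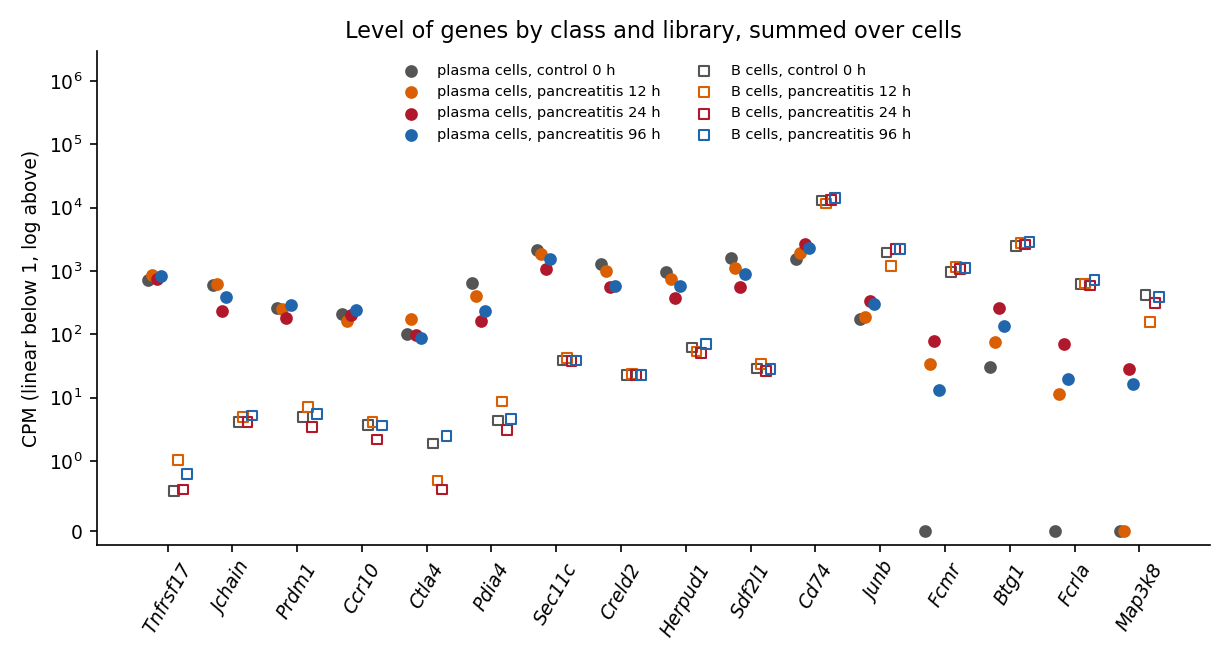
CPM of 16 genes (axis linear below 1, log above) in plasma cells (filled circles) and B cells (open squares), with 1 point for each library. For Tnfrsf17 the plasma cells lie between 727 and 879 CPM and the B cells at or below 1.05 CPM, while Cd74 and the genes to its right are lower in plasma cells in every library.

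Of the 2696 genes with at least 50 CPM in either class, 12.6% (341) were higher in plasma cells by 2-fold or more and 36.5% (985) lower by as much. When CPM was computed without immunoglobulin genes, Jchain and models without a symbol, a setting chosen after the data were seen, 648 were higher and 737 lower. The median log2 ratio of all genes measured was -0.64 in the first case and -0.22 in the second. Higher genes then made up 46.8% of those called, against 25.7% with all UMIs.

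Ranked by the interval bound nearest to 1, the genes highest in plasma cells over B cells in all 4 libraries included surface and enzyme genes. Tnfrsf17 stood at 727, 879, 737 and 847 CPM in plasma cells by time, against 0.568, 1.05, 0.596 and 0.812 CPM in B cells. Its pooled ratio was 1054 (761 to 1502), and of 1487 UMIs in all cells 715 lay in the 50 plasma cells. All B cells together held 38 UMIs and all T cells 19, while the 35 cells kept out by the Cd3 limit alone held a median of 16 UMIs each. Cst6, a secreted protease inhibitor, had 87.9 CPM in plasma cells and 0.122 CPM in B cells and was seen in 3 of 7, 13 of 17, 4 of 9 and 12 of 17 plasma cells. Ctla4, known as an inhibitory receptor of T cells, had 101, 175, 98.6 and 86.4 CPM in plasma cells, against 1.89, 0.724, 0.596 and 2.50 CPM in B cells. It was detected in 38 of 50 plasma cells and 0.515% of B cells. In all 50 plasma cells Cd3d, Cd3e and Cd3g had 3, 3 and 4 UMIs, a sum the definition limits. Ada, adenosine deaminase, had 212, 286, 305 and 385 CPM in plasma cells, against 4.50 to 7.75 CPM in B cells. Tmem97, a sterol-regulated ER protein, had 586, 198, 268 and 169 CPM in plasma cells, against 3.93 to 5.17 CPM in B cells. Cryba4, Selenom and Fam129b had pooled ratios of 166, 55.2 and 63.2.

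Among the lowest by the same ranking, Ell3, Bach2, Rflnb and Chst1 had 0 UMIs in plasma cells. Btg1, an antiproliferative gene, had 30.3, 76.1, 263 and 133 CPM in plasma cells by time, against 2513, 2768, 2625 and 2841 CPM in B cells. Map3k8, a kinase that acts on the ERK pathway, had 0, 0, 28.2 and 16.6 CPM in plasma cells, against 414, 159, 313 and 389 CPM in B cells.

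Surface and homing genes did not move one way. Of 15 surface and survival genes 8 were higher and 7 lower, with a median log2 ratio of 1.37 that became -0.90 without the 4 plasma cells lacking Tnfrsf17 and lay between -0.62 and 1.72 when 1 library was left out (-0.62 without 24 h). Slamf7 had 99.4 CPM in plasma cells and 2.08 CPM in B cells and was detected in 36 of 50 plasma cells. Sdc1, which encodes the plasma cell antigen CD138, had 20.2, 49.5, 9.39 and 9.97 CPM by time, against 0.0947, 0.724, 0.497 and 0.312 CPM in B cells, and was seen in 13 of 50 cells, against 0.134% of B cells. Cd38 had the smallest ratio of the list, 0.116 (0.0467 to 0.240), at 7.99 CPM in plasma cells and 68.8 CPM in B cells. Bcl2, a survival gene, was lower at 30.8 CPM in plasma cells and 169 CPM in B cells, and Bcl2l1, which encodes BCL-XL, was higher at 13.7 CPM in plasma cells and 5.32 CPM in B cells. Tnfrsf13c, the BAFF receptor, had a ratio of 0.247 and Tnfrsf13b, the receptor TACI, one of 3.33.

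Of 16 homing genes 6 were higher and 7 lower (0.10). Ccr10, the receptor for the skin chemokine CCL27 and the mucosal chemokine CCL28, was detected in 43 of 50 plasma cells and 0.966% of B cells. It stood at 212, 164, 202 and 246 CPM in plasma cells by time, against 3.69, 4.102, 2.19 and 3.62 CPM in B cells. Ccr9, the gut homing receptor, had 20.2, 57.1, 14.1 and 49.8 CPM, against 0.161 to 0.312 CPM in B cells. Itgb7, the beta chain of the gut homing integrin, had 217 CPM in plasma cells and 61.8 CPM in B cells. Lower were the chemokine receptor genes Ccr6 (13.7 CPM in plasma cells, 164 CPM in B cells) and Cxcr4, the receptor for the marrow chemokine CXCL12 (150 CPM in plasma cells, 927 CPM in B cells).

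Immediate early genes were lower in 12 of 13 cases and higher in 0 (-1.61). Junb had 172, 187, 333 and 306 CPM in plasma cells by time, against 1952, 1200, 2212 and 2247 CPM in B cells. Type I interferon response genes were lower in 9 of 11 cases and higher in 0 (-1.89), and Mx1 had 0, 0, 14.1 and 26.6 CPM in plasma cells, against 116, 125, 53.2 and 167 CPM in B cells. Heat shock genes were mostly neither in the pooled libraries, with 2 of 7 lower, 0 higher and a median log2 ratio of -0.0071. The libraries differed, with medians of 0.045, -0.84, 0.73 and -0.30 by time, against -0.47, -0.70, -0.30 and -0.56 over all genes measured.

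A large part of the plasma cell RNA fell on 2 gene models that the files leave without a name. AABR07060872.1 took 20.5%, 26.6%, 11.5% and 23.3% of the UMIs of plasma cells by time and 21.1% in all. AABR07065625.1 took 7.82%, 7.04%, 3.49% and 5.55%. Both together took 26.8% of plasma cell UMIs, against 1.31% of B cell UMIs. In single cells AABR07060872.1 ranged between 0.765% and 57.7% of the UMIs. All models without a symbol took 34.6% of plasma cell UMIs and 13.4% of B cell UMIs.

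Igh-6 lay in a few cells. The RefSeq table lists this name as a synonym of Ighm, the constant gene of the IgM heavy chain. Which chain it counts in these files, whose names are partly those of rat, was not tested. In B cells Igh-6 had 6.71 CPM and was seen in 1.27% of cells, while AABR07065625.1 had 4421 CPM and was seen in 99.7%. Igh-6 had at least 100 UMIs in 5 plasma cells (0 in control, 1 at 12 h, 2 at 24 h and 2 at 96 h) and 0 UMIs in 40. In those 5 cells it held between 2.70% and 8.04% of the UMIs. AABR07065625.1 took a median of 0.0933% (0.0720% to 1.01%) in the same 5 cells and between 0% and 0.301% in 5 cells with under 100 UMIs of each. The other 40 cells held at least 100 UMIs of it and under 100 of Igh-6, and their median of 7.09% (0.894% to 18.4%) is set in part by that choice. Of the 5 cells with Igh-6, 1 held at least 100 UMIs of both. The 5 cells with Igh-6 did not stand apart in AABR07060872.1, of which they held a median of 17.1% (9.69% to 32.8%). The relation within single cells was noticed in the data and is given as a description.

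Other models without a symbol were held by single cells. AABR07051556.1 had 34 of its 34 plasma cell UMIs in 1 cell at 12 h, AABR07051730.1 had 32 of 32 in 1 cell at 12 h, and AABR07065776.3 had 33 of 35 in 1 cell at 24 h.

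**Figure D4:**
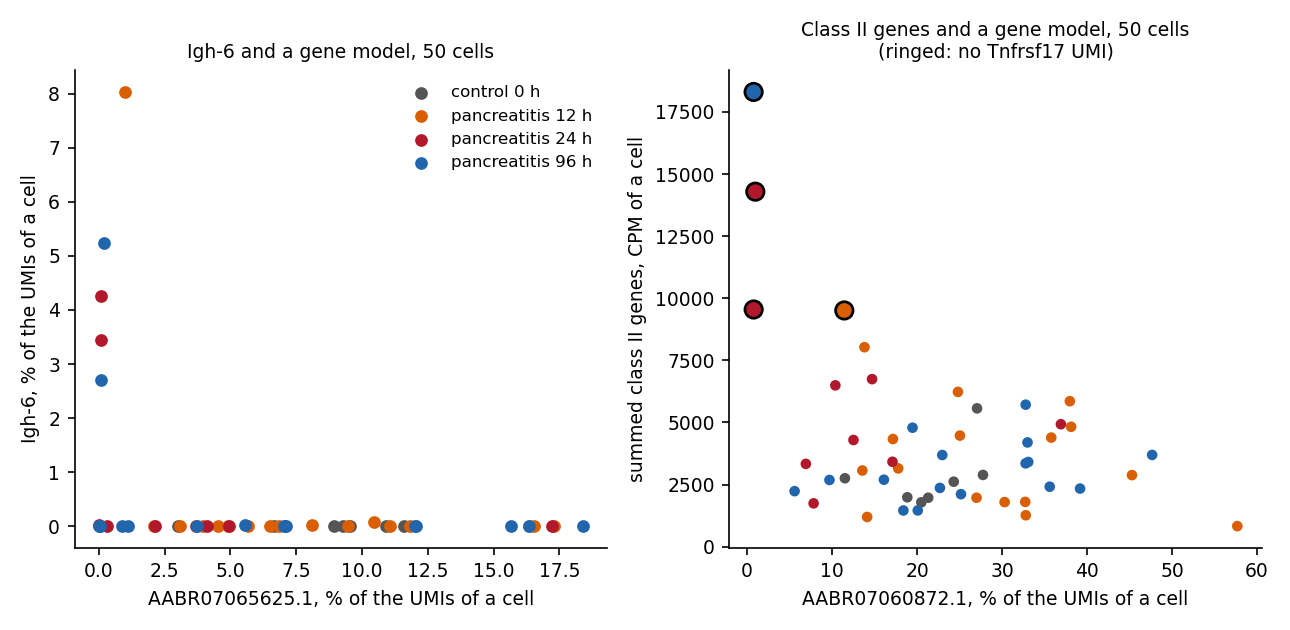
Each point is 1 of the 50 plasma cells, coloured by library. The left panel plots Igh-6 against AABR07065625.1, both as a percentage of the cell's UMIs, and the 5 cells with Igh-6 lie at or below 1.01% of the other; the right panel plots the summed class II genes (CPM of the cell) against AABR07060872.1, with the 4 cells that lack Tnfrsf17 ringed, all at or above 9509 CPM.

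The 4 plasma cells without a Tnfrsf17 UMI, 1 at 12 h, 2 at 24 h and 1 at 96 h, stood apart in other genes. Their summed class II level was 9509, 14291.5, 9548 and 18305 CPM, while the median of all 50 cells was 3243 CPM. In the 3 cells of 24 and 96 h AABR07060872.1 took 0.968%, 0.773% and 0.765% of the UMIs, Jchain had 0, 1 and 0 UMIs and Cd79b had 30, 52 and 33 UMIs. The cell of 12 h held 11.4% of AABR07060872.1, 2 UMIs of Jchain and 4 of Prdm1. The 3 cells of 24 and 96 h thus met the definition with few plasma cell transcripts, at 10, 22 and 15 UMIs of Mzb1 and Txndc5.

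Cell division was seen in a minority. At least 10 UMIs of 10 mitosis genes were held by 7 of 50 plasma cells, 1 of 7 in control, 1 of 17 at 12 h, 3 of 9 at 24 h and 2 of 17 at 96 h. The 10 genes were Mki67, Top2a, Cdk1, Birc5, Ube2c, Ccnb1, Cenpf, Tpx2, Nusap1 and Ccna2. This limit counts raw UMIs, and the median plasma cell had 11312, 14205, 23275 and 17297 UMIs by time. Of the 3 cells at 24 h, 1 was a cell without Tnfrsf17, with 14 UMIs of the mitosis genes and 22 UMIs of Mzb1 and Txndc5. These 7 cells held 87 of the 95 UMIs of Mki67, which marks cycling cells, and all 32 UMIs of Top2a, a topoisomerase of dividing cells. Both genes helped to choose the 7 cells, so these counts are set in part by that choice. Pclaf, a PCNA partner in DNA synthesis, was not among the 10 genes, and the 7 cells held all 20 of its UMIs. Of 20 cell cycle genes 17 were higher in plasma cells than in B cells and 2 lower (median log2 ratio 2.73), and without the 7 cells the median was -0.021. The 10 genes that chose the 7 cells belong to this list and B cells were not filtered likewise, so that fall is set in part by the choice. The DNA replication genes Pcna and Mcm3 were the 2 lower members, with ratios of 0.647 and 0.209.

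The share of plasma cells was 0.0580% of all cells in control (0.0233% to 0.119%), 0.154% at 12 h (0.0898% to 0.247%), 0.0791% at 24 h (0.0362% to 0.150%) and 0.125% at 96 h (0.0730% to 0.201%), by exact binomial (Clopper-Pearson) intervals. The ratio to control was 2.66 for 12 h (1.05 to 7.58), 1.37 for 24 h (0.452 to 4.31) and 2.16 for 96 h (0.852 to 6.17). Without the Cd3 limit the counts were 26, 23, 16 and 20 cells by time. The shares were then 0.215% in control (0.141% to 0.315%), 0.209% at 12 h (0.132% to 0.313%), 0.141% at 24 h (0.0804% to 0.228%) and 0.147% at 96 h (0.0901% to 0.228%). The ratios to control became 0.969, 0.653 and 0.685, so the higher share at 12 and 96 h did not hold without that limit. Of B cells and plasma cells together, plasma cells made up 0.206%, 0.478%, 0.300% and 0.398% by time. With at most 5% mitochondrial UMIs, which kept 584 control cells and 1794, 1140 and 1634 cells at 12, 24 and 96 h, the ratios were 0.814, 0.256 and 0.774. The Ficoll step and the cell filters set which cells enter these shares.

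**Figure D5:**
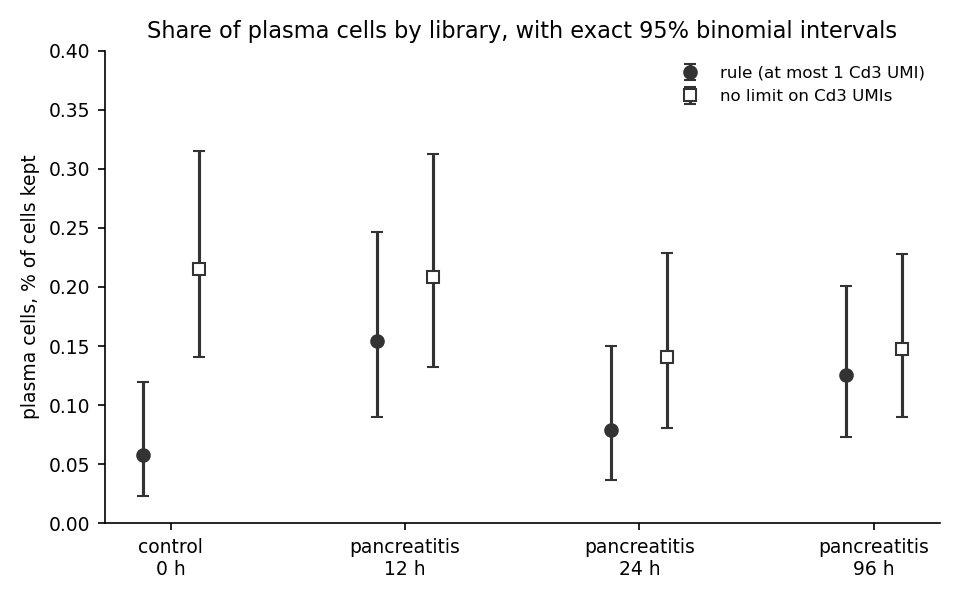
Plasma cells as a percentage of the cells kept in each library, with exact 95% binomial intervals, by the definition with at most 1 Cd3 UMI (filled circles) and without that limit (open squares). The filled points run 0.0580%, 0.154%, 0.0791% and 0.125% by time and the open points 0.215%, 0.209%, 0.141% and 0.147%, and the 2 control points are farthest apart.

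Between times the plasma cells of each pancreatitis library were set against the 7 of control, which hold 99063 UMIs, so 1 cell can weigh much in any gene. Taking a difference of 2-fold or more, 6.05% of 1504 genes were higher at 12 h and 5.78% lower. The 24 h library had 15.4% of 1525 higher and 5.77% lower, and the 96 h library 8.47% of 1688 higher and 5.81% lower. Without the Cd3 limit the counts moved from 91 higher and 87 lower to 35 and 114 at 12 h, from 235 and 88 to 214 and 71 at 24 h, and from 143 and 98 to 42 and 56 at 96 h. Scaling without models lacking a symbol put the higher share of called genes at 66.1% instead of 51.1% at 12 h and at 50.6% instead of 72.8% at 24 h. At 24 h the median log2 ratio of all genes was 0.23, and it was -0.02 on that scale. The 3 comparisons share their control library.

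By the definition used here, most ER folding genes were lower than in control at 24 and 96 h, and at 12 h most were neither higher nor lower. Past 1.5-fold, 1 of 25 was higher and 9 lower at 12 h (median log2 ratio -0.39), where 15.0% of all genes were higher and 20.5% lower. At 24 h 0 were higher and 17 lower (-0.98, all genes 30.2% higher and 14.4% lower), and at 96 h 0 were higher and 16 lower (-0.81, all genes 18.0% higher and 19.6% lower). Without the Cd3 limit the medians were 0.14, -0.41 and -0.17, so the sign of the 12 h median did not hold. Pdia4 at 24 h had 160 CPM in pancreatitis and 636 CPM in control, a ratio of 0.251 that was 0.394 without the Cd3 limit. Lman1 at 24 h had 122 CPM in pancreatitis and 495 CPM in control, a ratio of 0.247 that was 0.393 without it. Hsp90b1 at 96 h had 1964 CPM in pancreatitis and 4421 CPM in control, and its ratio of 0.444 became 0.719. ER translocation had medians of -0.49, -0.71 and -0.58, which were -0.12, -0.45 and -0.25 without the limit.

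Other genes named by rank at 24 h were Vim, Hsp90ab1 and Napsa, which were higher, and Prf1, which was lower. Vim, which encodes an intermediate filament, had 1930 CPM in pancreatitis and 262 CPM in control, a ratio of 7.35 (4.95 to 11.4) that was 1.20 without the Cd3 limit and 0.784 with at least 5 UMIs of Mzb1 and Txndc5. Hsp90ab1, a cytosolic chaperone, had 2085 CPM in pancreatitis and 343 CPM in control, a ratio of 6.08 that was 2.49 without it. Napsa, an aspartic protease, had 352 CPM in pancreatitis and 10.1 CPM in control, from 75 UMIs against 1, a ratio of 34.9 that was 1.94 without it. Prf1, the perforin gene, had 14.1 CPM in pancreatitis and 262 CPM in control, and the ratio of 0.0537 was 0.0733 without it. Class II genes were higher in 5 of 5 measured cases at 24 h (median 1.19), and this median was 0.33 without the limit and -0.25 with at least 5 UMIs of Mzb1 and Txndc5. The 24 h library also held 2 of the 4 cells without Tnfrsf17, which had the class II levels given above.

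At 12 h S100a8, an alarmin subunit of neutrophils, had 213 CPM in pancreatitis and 0 UMIs in control plasma cells. In B cells of the same libraries it had 2580 CPM at 12 h and 9.56 CPM in control, and in T cells 1773 CPM at 12 h and 8.09 CPM in control, so at 12 h plasma cells had less of it than either class. S100a9, the other subunit, had 95.2 CPM in pancreatitis and 0 UMIs in control, and Hs6st1, a heparan sulfate enzyme, 87.5 CPM in pancreatitis and 0 UMIs in control. With control at the floor of 3 counts, S100a8, S100a9 and Hs6st1 had ratios of 7.04, 3.14 and 2.89 at 12 h. Their intervals began at 5.54, 2.37 and 2.17, and without the Cd3 limit the ratios were 30.2, 16.1 and 2.10. Tmem97 had 198 CPM in pancreatitis and 586 CPM in control, a ratio of 0.338 that was 0.556 without the Cd3 limit. Rpa3, a DNA replication factor, had 64.7 CPM in pancreatitis and 242 CPM in control, a ratio of 0.267 that was 0.278 without it. The histone gene Hist1h2an had 38.1 CPM in pancreatitis and 212 CPM in control (0.18, and 0.22 without it), and each of these 2 was seen in 4 of 7 control cells.

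At 96 h Vim had 930 CPM in pancreatitis and 262 CPM in control, a ratio of 3.54 that turned to 0.794 without the Cd3 limit and to 0.790 with at least 5 UMIs of Mzb1 and Txndc5. Hsp90ab1 had 1040 CPM in pancreatitis and 343 CPM in control, and its ratio of 3.03 became 1.08. Swap70, a regulator of the B cell cytoskeleton, had 83.1 CPM in pancreatitis and 0 UMIs in control. Without the Cd3 limit Swap70 had a ratio of 1.12, and with at least 5 UMIs of Mzb1 and Txndc5 one of 0.855. Tmem97 had 169 CPM in pancreatitis and 586 CPM in control, with a ratio of 0.289 that was 0.472 without the limit. Zfp36l2, an RNA-binding regulator, had 1376 CPM in pancreatitis and 3311 CPM in control, and its ratio of 0.415 turned to 1.02.

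Markers of other cell types were summed in each library. T cell markers summed to 80.8, 49.5, 47.0 and 79.7 CPM by time, a sum the definition limits. Neutrophil markers summed to 0, 308, 117 and 16.6 CPM, against 19.3, 4489, 2603 and 165 CPM in B cells. Monocyte markers summed to 242, 244, 291 and 99.7 CPM, against 726, 839, 1255 and 472 CPM in B cells. Natural killer cell markers summed to 283, 122, 18.8 and 422 CPM, against 289.7, 340, 223 and 266 CPM in B cells. Markers of pancreatic acinar cells (3 with a row), endothelial cells (3) and B cell precursors (4) had 0 UMIs in all 50 cells, and platelet markers had at most 1 UMI in a library. The part of other cells' RNA in the results by time was not tested.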

How the data were processed

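Blood mononuclear cells were measured in 4 libraries, 1 for each time. The values are UMI counts per gene and cell, deposited by the authors without normalization. The submitters' processing notes name mm10, Seurat and Cell Ranger, with no version or role. Cells with more than 10% mitochondrial UMIs were left out. UMIs were summed over the cells of a class and scaled to CPM. Levels have exact Poisson intervals, ratios exact conditional binomial intervals and shares exact binomial intervals, all at 95%.

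A gene entered a comparison with at least 20 UMIs over both groups and, a limit added after the data were seen, at least 3 UMIs possible in the shallower group. Counts of 2-fold differences also ask for 50 CPM in either group. A gene at 0 UMIs entered at a floor of 3 counts. The depth was 875675 UMIs in plasma cells and 49067408 in B cells.

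The members and gene lists were chosen with earlier results of these data known. Named genes were the 5 markers, 2 at each end of every list, the 12 largest and 12 smallest ratios of plasma cells to B cells, and the 3 largest and 3 smallest at each time, ranked by the interval bound nearest to 1. Parts of this rule leave out mitochondrial, ribosomal, haemoglobin, T cell receptor and immunoglobulin genes, Xist, Y-linked genes and unnamed models. Other list members given, the gene models, Igh-6, Cd3g and Prss3 were chosen after their values were seen. The calculations were tested on simulated data. Software was python 3.11.15, numpy 2.4.6, scipy 1.17.1, pandas 2.3.3, scanpy 1.11.5 (Scrublet for doublets), anndata 0.12.19 and matplotlib 3.10.9.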

Additional observations from a re-analysis of the deposited data

How the results depend on the processing

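Of 2732 recomputed values, 2252 kept their direction and moved by less than the allowed spread, 460 moved and 20 reversed, and 111 of 115 named gene results reversed under no setting. The settings on the Cd3 limit, on all mitochondrial shares, on models without a symbol, on cells without Tnfrsf17 and on dividing cells were chosen after the data were seen. Except where a setting's construction shows it, the cause of a change was not tested. No paired analysis was possible because each group has 1 library.

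Without the Cd3 limit, the share ratio to control was 0.969 at 12 h and 0.685 at 96 h. The median of B cell regulators was -2.85, genes 2-fold higher at 12 h numbered 35, and genes 2-fold higher and lower at 96 h numbered 42 and 56. Medians against control were 0.33 for class II at 24 h, and -0.17 for ER folding and -0.68 for class II at 96 h, and the ratios at 96 h were 0.794 for Vim and 1.02 for Zfp36l2. With the limit on Cd3d and Cd3e alone, these were 0.735 for the share at 96 h, -2.93 for B cell regulators, 33 genes higher at 12 h and 46 at 96 h, -0.20 and -0.59 for ER folding and class II at 96 h, 0.771 for Vim and 1.18 for Zfp36l2.

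With at most 5% mitochondrial UMIs, the share ratios were 0.814, 0.256 and 0.774 at 12, 24 and 96 h. Medians against B cells were -3.03 for B cell regulators, -1.18 for surface and survival, -3.98 for B cell identity, -3.85 for class II, -0.10 for cell cycle, -3.75 for interferon response, -2.28 for immediate early and -1.21 for heat shock genes. Genes 2-fold higher and lower at 24 h numbered 61 and 43, those higher at 96 h 68, and the class II median at 24 h was 0.45.

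With at least 5 UMIs of Mzb1 and Txndc5, 205 genes were 2-fold higher and 417 lower than in B cells. Medians were 1.53 for plasma cell regulators, -1.23 for B cell regulators, 7.45 for immunoglobulin and J chain, 1.67 for ER translocation, 2.27 for ER folding, 1.33 for ER-associated degradation, 1.64 for N-glycosylation, -1.08 for B cell identity, -2.03 for class II, 1.95 for cell cycle and -0.76 for interferon response. The immunoglobulin and J chain list had 2 measured members, Igh-6 and Jchain, so its median here and below is the midpoint of these. By time, 131 genes were lower at 12 h, 135 higher at 24 h and 82 higher at 96 h. Class II medians were -0.33 at 12 h and -0.25 at 24 h, the immediate early median at 24 h was 0.14, and the ratios were 0.784 for Vim at 24 h, 0.790 for Vim at 96 h and 0.855 for Swap70 at 96 h. With at least 20 UMIs the B cell identity median was -3.80.

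Leaving out the plasma cell with the most UMIs of each gene, which lowers plasma cells by construction, gave medians of 7.21 for immunoglobulin and J chain, -1.25 for stress sensors, -0.31 for surface and survival, -4.65 for B cell identity, 0.25 for cell cycle, -2.23 for immediate early and -0.69 for heat shock genes, with 31, 32 and 38 genes 2-fold lower at 12, 24 and 96 h. Thinning to 2000 UMIs gave -2.66 for B cell regulators, -2.59 for class II, 1.52 for cell cycle, 0.28 for amino acid supply and -1.01 for immediate early genes. Without a minimum CPM 946 genes were higher and 3246 lower than in B cells.

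Scaling without models lacking a symbol gave 648 genes higher than in B cells, 57 lower at 12 h and 163 lower at 24 h, and a median of ratios 154 lower at 24 h. Without the cells lacking Tnfrsf17 the medians were -0.90 for surface and survival and -4.68 for B cell identity, and 112 genes were higher and 55 lower at 24 h. Without dividing cells they were -0.54 for surface and survival and -0.021 for cell cycle, with 111 genes higher at 24 h and 91 at 96 h. Leaving out 1 library gave -3.55 to -2.81 for B cell regulators, -0.62 to 1.72 for surface and survival and -3.70 to -2.60 for B cell identity.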

Other observations

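A trypsin-family gene stood out after the values were seen. Prss3, a serine protease gene of the trypsin family, had 54 UMIs in 9 of the 50 plasma cells, which is 41.5% of the 130 UMIs found in all 48032 cells, and 13 other cells held the rest. Its level in plasma cells was 70.7 CPM in control, 26.6 at 12 h, 117 at 24 h and 49.8 at 96 h, and up to 15 UMIs lay in 1 cell. The markers of pancreatic acinar cells with a row in the files had 0 UMIs in the same cells.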
